A study of Mus musculus with 12 samples.

Results

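The 39 genes described here are interferon response genes, chosen by symbol from the deposited count table: 26 genes that type I interferon is known to induce and 13 genes that are best known as targets of gamma interferon. All 26 type I genes and 10 of the 13 gamma genes were matched to a row, so that 36 of the 37681 genes in the table are described, and no expression values of Gbp5, Gbp6 and Psmb9 were analysed here. RNAseq was carried out on kidney cortex of male C57BL/6 mice that had received no treatment and were 18 months old by the methods of the study. The 3 TRACK mice (genotype TRACK/gamma-HIF1alphaM3 TG+) carry a mutated, constitutively active HIF1α that is expressed in proximal tubules, and the 3 TG- mice are littermates without the transgene. Each mouse gave 2 libraries, 1 from each kidney, and the reads of both kidneys were summed, so that 3 mice were compared with 3 mice. Nothing in the labels says that the cortex slices were sorted, so every value is a mean over all cell types of the cortex.

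Cells respond to viral nucleic acid, and to the body's own nucleic acid when it is misplaced, by secreting type I interferon. Its receptor activates a complex that holds STAT2 and IRF9 and binds the interferon-stimulated response element (ISRE) of antiviral genes. Gamma interferon comes mainly from T cells and NK cells, and its receptor acts through the gamma-activated site (GAS) of genes for antigen presentation and for GTPases that attack intracellular pathogens. Many genes respond to both kinds of interferon, so the division into 2 lists is one of emphasis. HIF1α binds another short sequence, the core of the hypoxia response element (HRE).

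The promoters of 6 genes are printed because they show these 3 elements: in Isg20, the member with the largest difference, in Rsad2, Irf1 and Gbp7, which were called, and in Isg15 and Ifit1, well-known type I genes that were not called. Each stretch lies upstream of an annotated start and is written 5′ to 3′ on the strand of the gene, from RefSeq sequence of GRCm38.p6. Capitals mark a single kind of element in each gene: the HRE core in Isg20, ISRE matches in Isg15, Ifit1 and Rsad2, and GAS matches in Irf1 and Gbp7. Matches of another kind are left in small letters, an HRE core in Irf1 and an ISRE match in Gbp7. Rsad2 also has an HRE core, outside the stretch shown.
Isg20 (chr7:78913645-78913764, plus strand): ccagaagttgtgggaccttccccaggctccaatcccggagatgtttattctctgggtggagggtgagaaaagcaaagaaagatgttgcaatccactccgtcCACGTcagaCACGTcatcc
Isg15 (chr4:156200819-156200938, minus strand): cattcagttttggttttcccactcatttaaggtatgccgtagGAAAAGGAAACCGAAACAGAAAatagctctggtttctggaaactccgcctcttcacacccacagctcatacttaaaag
Ifit1 (chr19:34640769-34640868, plus strand): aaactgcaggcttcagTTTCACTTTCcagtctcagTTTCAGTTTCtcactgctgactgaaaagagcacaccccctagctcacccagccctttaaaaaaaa
Rsad2 (chr12:26456483-26456602, minus strand): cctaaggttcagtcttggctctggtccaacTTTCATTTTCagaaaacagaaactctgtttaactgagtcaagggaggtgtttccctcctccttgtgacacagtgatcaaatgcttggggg
Irf1 (chr11:53769894-53770013, plus strand): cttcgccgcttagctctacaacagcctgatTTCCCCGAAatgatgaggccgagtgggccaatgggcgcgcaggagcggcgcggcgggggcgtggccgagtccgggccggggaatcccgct
Gbp7 (chr3:142530216-142530335, plus strand): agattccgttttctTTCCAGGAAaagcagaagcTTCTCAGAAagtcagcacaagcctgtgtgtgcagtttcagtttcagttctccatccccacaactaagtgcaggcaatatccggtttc

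The ISRE was searched as GAAA followed after 2 bases by a second GAAA, the GAS as TTC followed after 3 bases by GAA, and the HRE core as ACGTG or GCGTG, on both strands, in the 250 bases before each start. A promoter was found for 29 of the 39 members, and the 10 gamma promoters include those of Gbp5 and Psmb9 but not of Iigp1 and Tap2. The ISRE was present in 9 of 19 type I promoters (47.4%) and in 6 of 10 gamma promoters (60%), against 3.46% of 27025 genes. The GAS was present in 4 of 19 type I promoters (21.1%) and in 5 of 10 gamma promoters (50%), against 8.13% of all genes. The HRE core is common, in 41.5% of all genes, and was present in 7 of 19 type I promoters (36.8%) and 5 of 10 gamma promoters (50%). Isg20 has 3 annotated starts, and no ISRE match was found before any of them. The most found before any single start of Isg20 was 1 GAS match and 2 HRE cores, with each element counted by itself. The 2 HRE cores lie a few bases apart just before the start shown, and the stretch shown holds no GAS match. In the window of Oasl1 none of these letters were found. A match is a string of letters and not a measured binding site.

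Of the 36 interferon response genes, 17 were called higher in TG+ cortex and 0 lower, and 19 were not called. The median log2 fold change, TG+ over TG-, was 0.43 over the 26 type I genes and 0.55 over the 10 gamma genes, against 0.01 over all 19399 genes tested. It was above 0 for 25 type I genes and for all 10 gamma genes, against 51.8% of all genes. All 36 members passed the filter on low counts. Adjusted p-values come from the quasi-likelihood test of edgeR, corrected over all genes tested by the Benjamini-Hochberg method, and a gene is called here at an adjusted p below 0.05. Of the type I genes 12 of 26 were called higher and 0 lower, and of the gamma genes 5 of 10 higher and 0 lower, where 15.4% of all genes were called higher and 10.9% lower. With 1 mouse left out, 6 to 13 type I and 2 to 5 gamma genes were called higher, where 1985 to 2757 of all genes were. With all mice and an unadjusted p below 0.05, 20 of 26 and 7 of 10 were higher, where 21.9% of all genes were. With the threshold of the study, an adjusted p below 0.01 and a change above 2-fold, 3 type I genes (Isg20, Oasl1 and Dhx58) and 0 gamma genes were called, where 3.77% of all genes were called higher (732 genes) and 0.211% lower (41 genes). The lowest TG+ mouse exceeded the highest TG- mouse for 18 type I and 7 gamma genes, where 23.4% of all genes did so. In bulk cortex, more cells of a type and more RNA per cell cannot be told apart.

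**Figure D1:**
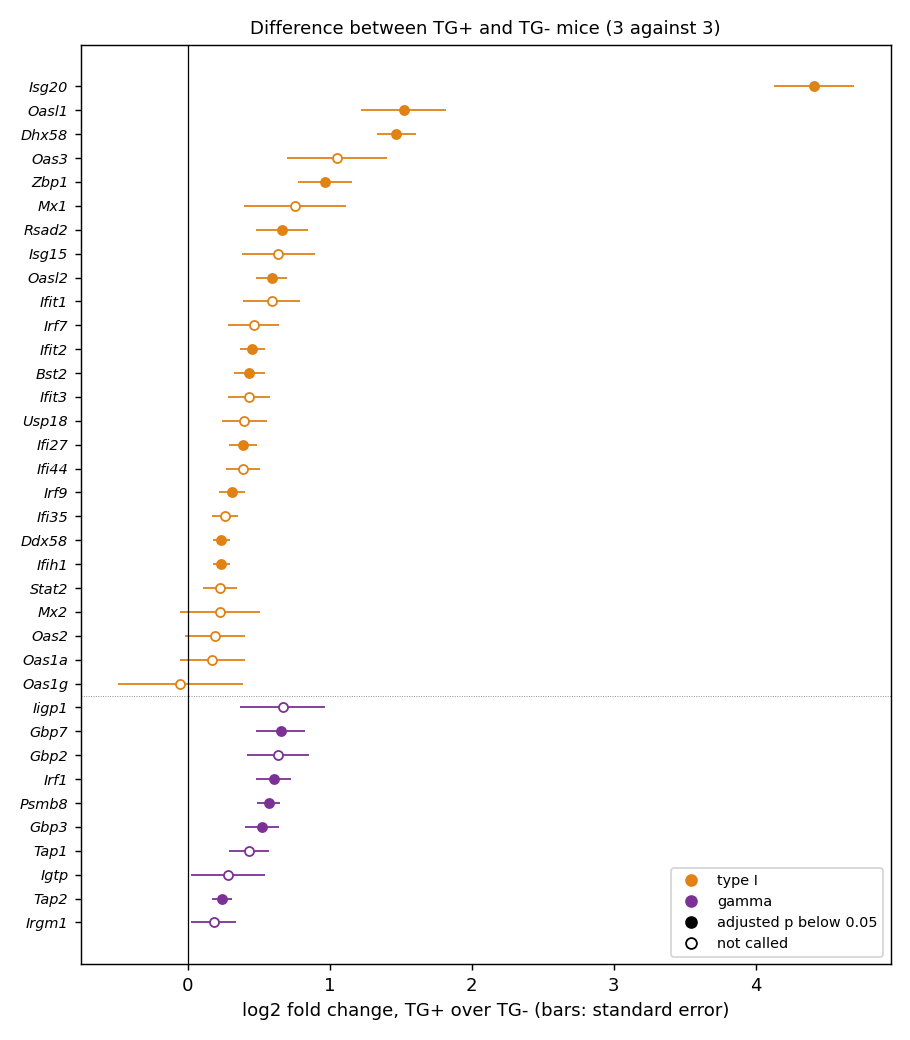
Log2 fold change of each member, TG+ over TG- (x axis), with its standard error as a bar, for type I genes (orange) and gamma genes (purple). Filled points have an adjusted p below 0.05, and Isg20 at 4.41 stands far to the right of all others, which lie between -0.05 and 1.52.

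In the values that follow, the TG+ mice are given in the order 43-29, 43-49 and 43-75 and the TG- mice in the order 43-26, 43-50 and 43-76. CPM are counts scaled to the TMM-normalized size of the library. Isg20, an exonuclease that degrades RNA and is induced by interferon, stood at 34.0, 17.1 and 22.3 CPM in the TG+ mice and at 1.23, 1.17 and 1.04 CPM in the TG- mice. The lowest TG+ mouse was thus far above the highest TG- mouse. The log2 fold change of Isg20 was 4.41 ± 0.28 (SE, adjusted p = 5.66e-05), a 21.2-fold difference, and it ranked 69 among the 732 genes called higher by the threshold of the study. Leaving out each mouse in turn gave log2 fold changes of Isg20 between 4.08 and 4.60. Per length of transcript, in the RPKM that the authors deposited, Isg20 went from 0.218 ± 0.0177 (SD, n = 3) in TG- mice to 4.34 ± 1.53 in TG+ mice. That moved it from the 6 lowest of the 36 members in TG- cortex to a level near that of Ifi27, which was at 4.81 ± 0.445 in TG+ cortex.

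The cytoplasmic RNA sensors form a family of 3 helicases, and all 3 were called. Dhx58, which encodes LGP2 and tunes signalling by the other two, stood at 5.38, 5.06 and 5.28 CPM in TG+ mice and at 1.93, 1.59 and 2.17 CPM in TG- mice. The TG+ mice were close to one another, and the groups were well apart, with a log2 fold change of 1.47 ± 0.14 (SE, adjusted p = 0.000362). Reads of Dhx58 could not be told apart from those of the overlapping gene Dhx58os where these share sequence, since strand is not stated for the counting. Ifih1, which encodes MDA5, a sensor of long double-stranded RNA, was at 21.4, 21.1 and 20.5 CPM against 17.4, 17.9 and 18.2 CPM. Ddx58, which encodes RIG-I, a sensor of the 5′ ends of viral RNA, was at 31.4, 28.9 and 29.4 CPM against 25.0, 25.5 and 25.7 CPM. The groups did not overlap for either gene, but the differences were small: 0.24 ± 0.06 for Ifih1 (adjusted p = 0.0208) and 0.23 ± 0.06 for Ddx58 (adjusted p = 0.0202) on the log2 scale. Both calls were lost in 5 of the 6 fits that leave out a mouse, with adjusted p of Ifih1 up to 0.0768 without 43-29. Zbp1, a sensor of Z-form nucleic acid that can start necroptosis, was at 3.74, 2.72 and 2.81 CPM against 1.66, 1.26 and 1.82 CPM. Its log2 fold change was 0.97 ± 0.19 (adjusted p = 0.00972), just under 2-fold, with the groups apart.

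Of the 2′-5′ oligoadenylate synthetase family, Oasl1 and Oasl2 were called. Oasl1, which has no synthetase activity and is known to hold back translation of Irf7, was at 9.30, 4.55 and 7.83 CPM in TG+ mice and at 3.39, 1.93 and 2.23 CPM in TG- mice. It rose by 1.52 ± 0.30 on the log2 scale (SE, adjusted p = 0.00893), and it overlaps Gm13822 of the table, so some of its reads may belong to that gene. It stayed called at an adjusted p below 0.05 without any 1 mouse, but its adjusted p was above 0.01 without 43-29, 43-75, 43-50 or 43-76, with values of 0.024, 0.0327, 0.0337 and 0.0408. Oasl2, a related gene, was at 11.4, 9.93 and 10.4 CPM against 7.49, 6.09 and 7.47 CPM, with groups apart and a log2 fold change of 0.59 ± 0.11 (adjusted p = 0.00625). Oas3, a synthetase whose product activates RNase L, had a log2 fold change of 1.05 but was not called (adjusted p = 0.0619). The other synthetase genes were not called and their groups overlapped. Oas2 was at 2.79, 2.49 and 1.79 CPM against 1.97, 1.72 and 2.52 CPM (log2 fold change 0.19 ± 0.21, adjusted p = 0.553). Oas1a was at 0.768, 0.793 and 0.578 CPM against 0.741, 0.490 and 0.675 CPM (0.17 ± 0.23, adjusted p = 0.634). Oas1g, the member with the fewest reads, was at 0.222, 0.159 and 0.119 CPM against 0.234, 0.0875 and 0.205 CPM (-0.05 ± 0.44, adjusted p = 0.945). Its sign was positive with scaling by library size alone and in 3 of the 6 fits that leave out a mouse. Oas1a and Oas1g are near-identical copies in a cluster, so reads may have been split between them.

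Among the antiviral effectors, Rsad2, which encodes viperin, an enzyme that makes a chain-terminating nucleotide, was at 46.0, 47.1 and 46.1 CPM in TG+ mice and at 38.8, 22.4 and 26.7 CPM in TG- mice. The TG+ mice were nearly alike and the TG- mice varied, and the log2 fold change was 0.66 ± 0.18 (SE, adjusted p = 0.0277). The call was lost in 5 of the 6 fits without a mouse, with log2 fold changes between 0.50 and 0.92. Of the IFIT genes, whose proteins bind foreign RNA and block its translation, Ifit2 was at 17.1, 14.4 and 15.2 CPM against 11.5, 10.5 and 12 CPM. Ifit2 rose by 0.46 ± 0.09 on the log2 scale (adjusted p = 0.0091). With kidney 1 alone, where the library of 43-29 was at 19.3 CPM and stood above all other TG+ libraries, it was not called (0.45, adjusted p = 0.056), and without 43-29 it was (0.37, adjusted p = 0.0308). Its neighbours Ifit1 (0.59, adjusted p = 0.061) and Ifit3 (0.43, adjusted p = 0.0697) were not called. Bst2, which encodes tetherin, a membrane protein that holds budding virus at the cell surface, was at 11.3, 10.2 and 11.2 CPM against 8.21, 6.86 and 9.17 CPM. Its log2 fold change of 0.43 ± 0.11 (adjusted p = 0.0281) was not called without 43-29, 43-75, 43-26 or 43-50, with adjusted p from 0.0624 to 0.0941. Ifi27, a small mitochondrial protein gene, was at 34.9, 31.7 and 28.9 CPM against 27.2, 22.8 and 22.9 CPM, with a log2 fold change of 0.39 ± 0.10 (adjusted p = 0.022). Without 43-29, 43-50 or 43-76 its adjusted p was 0.0636, 0.0763 or 0.0835.

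Several other well-known type I genes, named here for their role, were not called in the main fit, which has no pairs. With the littermate pairs of a file name as a block, 18 type I genes were called in place of 12. Of all genes, 3413 were then called higher in place of 2982. Isg15, a ubiquitin-like modifier, was at 3.62, 1.96 and 2.61 CPM against 2.11, 1.37 and 1.78 CPM, with overlapping groups and a log2 fold change of 0.64 (adjusted p = 0.104). Usp18, which removes ISG15 and dampens the receptor, had a log2 fold change of 0.40 (adjusted p = 0.108). Mx1 (0.75, adjusted p = 0.16) and Mx2 (0.23, adjusted p = 0.603), genes of a family of dynamin-like antiviral GTPases, overlapped between groups. Mx2 is annotated as a polymorphic pseudogene, and whether either gene gives a working protein in these mice was not tested. For Isg15 and Mx1 the highest value was that of 43-29. For Isg15, 43-49 lay within the range of the TG- mice and 43-75 above it. For Mx1 the other TG+ mice, at 1.59 and 1.61 CPM, lay within the range of the TG- mice (0.718 to 1.70 CPM). Ifi44 (0.39, adjusted p = 0.0529) and Ifi35 (0.26, adjusted p = 0.0651) lay just outside the threshold, with the groups apart.

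Of the 3 transcription factor genes in the type I list, Irf9 alone was called. Irf9, the DNA-binding part of the complex with STAT2, was at 19.8, 19.0 and 19.8 CPM in TG+ mice and at 14.0, 15.7 and 17.5 CPM in TG- mice. Its log2 fold change was 0.31 ± 0.09 (SE, adjusted p = 0.0341), the call was lost in 5 of the 6 fits without a mouse, and the gene overlaps Rnf31, so that shared reads may have been counted for either. Irf7, which amplifies interferon production, had a log2 fold change of 0.47 (adjusted p = 0.102), with 43-29 at 17.5 CPM and the other TG+ mice at 10.8 and 11.3 CPM. Stat2 had a log2 fold change of 0.23 (adjusted p = 0.184).

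**Figure D2:**
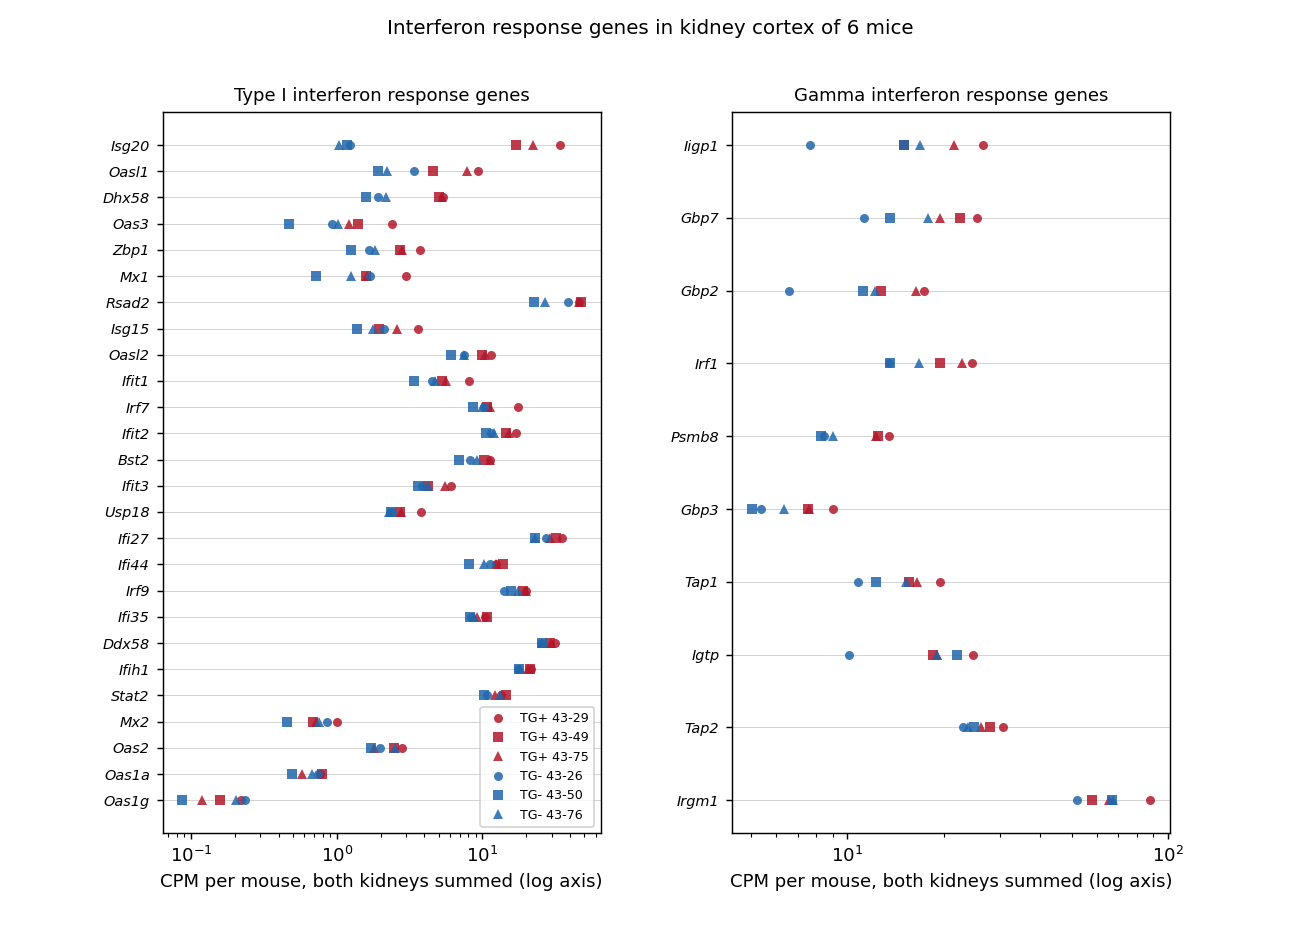
CPM of each member in each mouse on a log axis, with both kidneys summed, for TG+ mice in red and TG- mice in blue and 1 symbol per mouse. Genes are ordered by log2 fold change, and the red and blue points are far apart for Isg20 and apart for Dhx58 and Oasl1. They are mixed for Oas1g and Irgm1, the lowest genes of the panels. In the gamma panel they also overlap for Iigp1 at the top and are apart for Tap2 near the bottom.

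Among the gamma interferon genes, Psmb8 and Irf1 had the lowest adjusted p-values. Psmb8, which encodes the immunoproteasome subunit that takes the place of PSMB5, was at 13.5, 12.5 and 12.3 CPM in TG+ mice and at 8.46, 8.30 and 9.05 CPM in TG- mice. The spread within groups was small, and Psmb8 rose by 0.57 ± 0.08 on the log2 scale (SE, adjusted p = 0.00191). Irf1, a transcription factor that gamma interferon induces early, was at 24.5, 19.4 and 22.7 CPM against 13.5, 13.6 and 16.7 CPM. Its log2 fold change was 0.60 ± 0.12 (adjusted p = 0.00782), with all TG+ mice above all TG- mice. The genes Tap1 and Tap2 encode the pump that carries peptides to MHC class I molecules. Tap2 was at 30.5, 27.8 and 26.1 CPM against 22.9, 24.8 and 23.7 CPM, a difference of 0.24 ± 0.07 (adjusted p = 0.0439), and was not called in any fit with 1 mouse left out except that without 43-75. Tap1 had a log2 fold change of 0.43 (adjusted p = 0.0535), with the groups apart. Irf1, Psmb8 and Tap2 overlap other genes of the table, so some of their reads may belong to those.

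The guanylate-binding proteins are large GTPases that coat and break open the vacuoles of pathogens. Gbp7 was at 25.4, 22.5 and 19.4 CPM in TG+ mice and at 11.3, 13.6 and 17.9 CPM in TG- mice (log2 fold change 0.65 ± 0.17 SE, adjusted p = 0.0253). Gbp3 was at 9.02, 7.55 and 7.57 CPM against 5.38, 5.04 and 6.37 CPM (0.52 ± 0.12, adjusted p = 0.0171). Gbp2 was at 17.4, 12.7 and 16.4 CPM against 6.57, 11.2 and 12.2 CPM (0.63 ± 0.22, adjusted p = 0.0721). The groups were apart for all 3, narrowly for Gbp2, and only Gbp2 was not called. Gbp3 and Gbp7 lost their calls without 43-29, 43-26 or 43-50, and Gbp7 also without 43-49, with adjusted p between 0.0517 and 0.0787. The genes of this family are similar in sequence and lie in clusters, so reads may have been shared among them.

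The immunity-related GTPases overlapped between the groups. Iigp1 was at 26.4, 15.0 and 21.5 CPM in TG+ mice and at 7.64, 15.0 and 16.9 CPM in TG- mice, a log2 fold change of 0.67 ± 0.30 (SE, adjusted p = 0.139) that was 0.39 without 43-26 and 0.46 without 43-29. Igtp was at 24.7, 18.5 and 19.1 CPM against 10.1, 22.0 and 19.0 CPM (0.28 ± 0.26, adjusted p = 0.464). Irgm1 was at 87.9, 58.1 and 65.3 CPM against 52.0, 66.7 and 67.5 CPM (0.18 ± 0.16, adjusted p = 0.448). In all 3 the TG- mouse 43-26 was lowest and the TG+ mouse 43-29 highest, and the groups overlapped among the 4 other mice for Iigp1 and Igtp. For Irgm1 the other TG+ mice lay below the other TG- mice. Without 43-26 the log2 fold change of Igtp was 0.01, and without 43-29 that of Irgm1 was -0.02. Igtp overlaps Irgm2, which showed the same low value in 43-26 (17.8 CPM, against 25.4 to 33.0 CPM in the other mice).

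**Figure D3:**
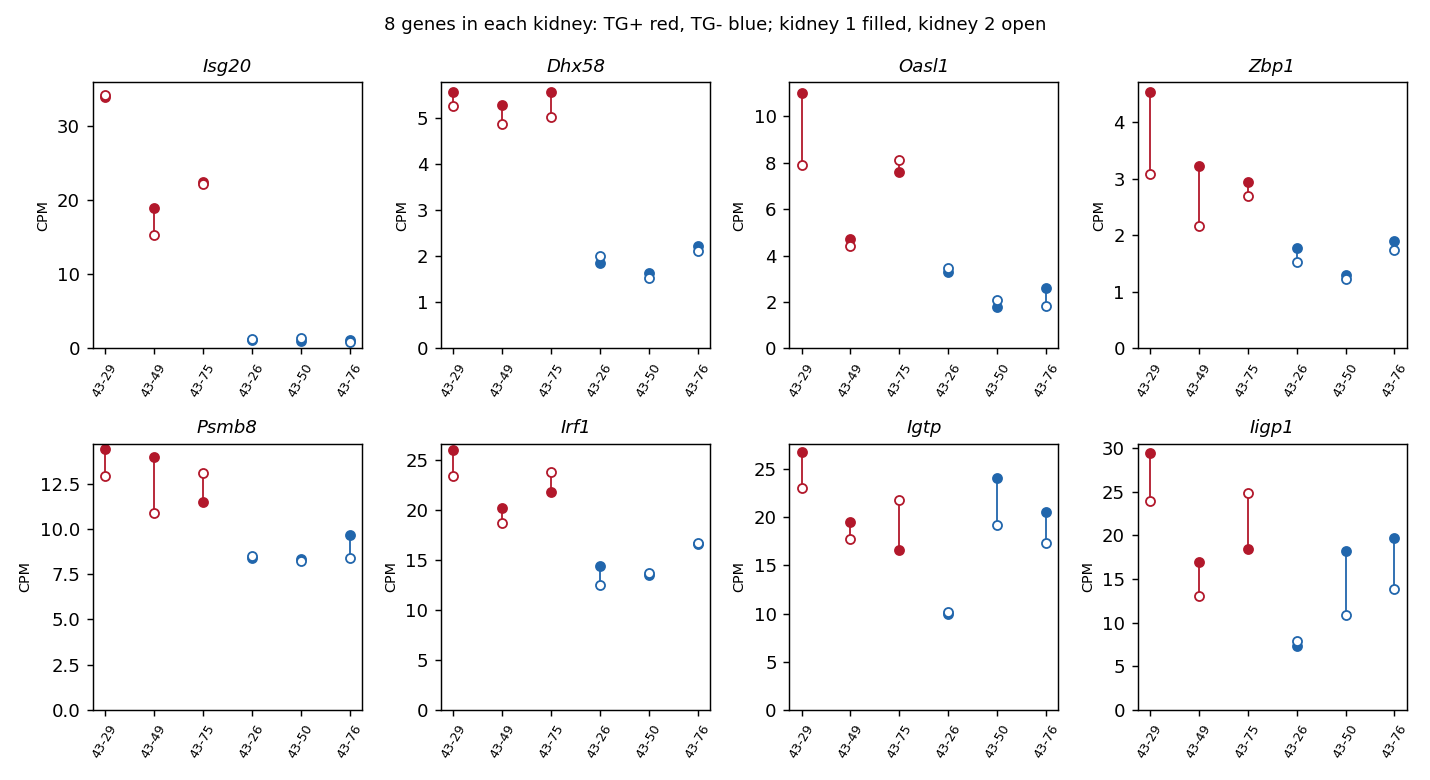
CPM of 8 members in each kidney (kidney 1 filled, kidney 2 open, joined by a line), TG+ mice in red and TG- mice in blue, each axis starting at 0. In Isg20, Dhx58, Oasl1, Zbp1, Psmb8 and Irf1 all 6 TG+ kidneys lie above all 6 TG- kidneys, while in Igtp and Iigp1 both kidneys of 43-26 are low and the other mice overlap.

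The members varied together by mouse. On the log2 scale, after subtracting each gene's mean over the 6 mice, the median over type I genes was 0.38, 0.13 and 0.12 in the TG+ mice and -0.16, -0.45 and -0.12 in the TG- mice. Over gamma genes it was 0.43, 0.09 and 0.17 against -0.42, -0.19 and 0.01. Both lists were highest in 43-29, but the lowest TG- mouse was 43-50 for type I genes and 43-26 for gamma genes. Mouse 43-29 had the highest TG+ value in 21 of 26 type I genes and in 10 of 10 gamma genes, against 33.1% of all genes. Among the TG- mice, 43-50 was lowest in 21 of 26 type I genes, against 34.2% of all genes, and 43-26 was lowest in 8 of 10 gamma genes, against 34.7%. These shares are descriptions, since genes of 1 response are not independent of one another. Without 43-29, 6 type I and 2 gamma genes were called, where 2506 of all genes were called higher in place of 2982, with median log2 fold changes that stayed above 0 under every mouse left out (0.34 to 0.49 for type I and 0.40 to 0.61 for gamma genes).

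The kidneys of a mouse also differed. The median over genes of the mean absolute log2 difference between kidneys was 0.209 for type I and 0.136 for gamma genes, against 0.116 for all genes. The SD between mice of a group was 0.225 and 0.237, against 0.129 for all genes. Kidney 1 of 43-29 was above kidney 2 in 34 of the 36 members, where it was so for 9643 of all 19399 genes. In the other mice kidney 1 was above kidney 2 in 12 (43-75) to 31 (43-76) of the 36 members. In 12 of 26 type I genes and 2 of 10 gamma genes, all 6 TG+ libraries lay above all 6 TG- libraries, where 13.7% of all genes did so. The 2 gamma genes were Irf1 and Psmb8, and the 12 type I genes included Isg20, Dhx58, Oasl1, Oasl2, Zbp1 and Rsad2. The 2 kidneys of a mouse are not independent samples, so these values are given with no test.

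**Figure D4:**
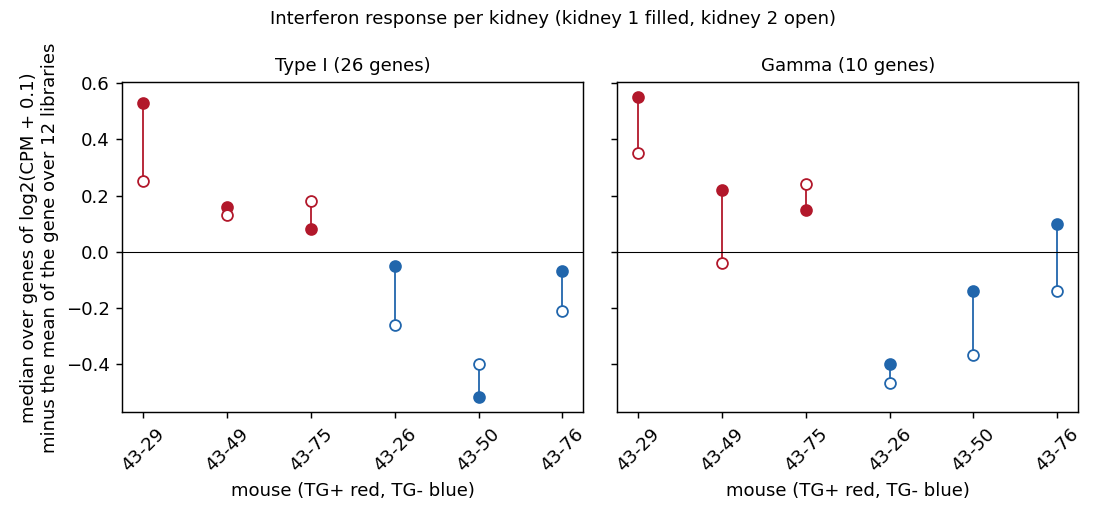
Median over type I genes (left) and gamma genes (right) of the log2(CPM + 0.1) of each kidney minus the gene's mean over the 12 libraries, with TG+ mice in red and TG- mice in blue. Kidney 1 of 43-29 is highest in both panels, at 0.53 and 0.55, and the lowest mouse is 43-50 on the left and 43-26 on the right.

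Interferons themselves were almost absent from the reads. Of 21 ligand genes 11 were in the table and none passed the filter on low counts, while the other 10 were not analysed here. At 0 reads in every mouse were 8 of them (Ifna2, Ifna4, Ifna12, Ifna13, Ifna16, Ifne, Ifnl2 and Ifnl3), where 3 reads correspond to 0.0525 to 0.0614 CPM per mouse. That limit covers counting error only. Ifng was at 0.0607, 0.0882 and 0.0398 CPM in TG+ mice and at 0.0195, 0.0525 and 0.123 CPM in TG- mice, and the groups overlapped. At this depth no difference in ligand transcripts was detectable.

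The list of receptors and the JAK-STAT pathway had a median log2 fold change of 0.18, and 4 of 14 genes were called higher and 0 lower, where 15.4% of all genes were called higher. Ifngr1, the ligand-binding chain of the gamma interferon receptor, was at 61.6, 46.3 and 56.3 CPM in TG+ mice and at 40.1, 35.2 and 34.5 CPM in TG- mice (0.58 ± 0.11 SE, adjusted p = 0.00751). Jak2 (0.31, adjusted p = 0.00597), Ifnar2 (0.22, adjusted p = 0.0274) and Ptpn2 (0.21, adjusted p = 0.0418) were the other genes called. Ifnar1 (0.06, adjusted p = 0.465) and Ifngr2 (0.32, adjusted p = 0.179) were not.

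Of 14 genes that sense nucleic acid upstream of interferon, pass on or regulate that signal, or remove nucleic acid, 6 were called higher and 1 lower, where 15.4% of all genes were called higher and 10.9% lower, and the median log2 fold change was 0.14. Mb21d1, which encodes cGAS, the sensor of cytoplasmic DNA, was at 1.27, 1.41 and 1.17 CPM in TG+ mice and at 0.585, 0.315 and 0.798 CPM in TG- mice (1.20 ± 0.30 SE, adjusted p = 0.0232). Tmem173, which encodes STING, the protein that cGAS signals to, was at 6.89, 6.38 and 6.15 CPM against 4.09, 3.41 and 3.95 CPM (0.76 ± 0.11, adjusted p = 0.0024). Tlr9, the receptor for unmethylated DNA in endosomes, had a log2 fold change of 0.97 (adjusted p = 0.00776). Tlr7, Irf5 and Samhd1 were the other genes called higher. Trim25, a ubiquitin ligase that acts on RIG-I, was lower, at 118, 119 and 127 CPM against 136, 159 and 148 CPM (-0.28 ± 0.07, adjusted p = 0.0214).

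In a further list of interferon-induced genes, 16 of 29 tested were called higher and 0 lower, where 15.4% of all genes were called higher, and the median log2 fold change was 0.57. Parp14, an ADP-ribosyltransferase, was at 28.8, 26.7 and 27.5 CPM in TG+ mice and at 16.9, 15.3 and 19.3 CPM in TG- mice (0.69 ± 0.09 SE, adjusted p = 0.00155). Nlrc5, the activator of MHC class I genes, had a log2 fold change of 0.81 (adjusted p = 0.0158). Cxcl10, a chemokine that draws T cells, was called at 0.87 (adjusted p = 0.0493) although its groups overlapped. Of 10 MHC class I presentation genes 4 were called higher and 0 lower, with a median of 0.19. These were H2-K1 and H2-D1, which encode class I heavy chains (0.53, adjusted p = 0.00394, and 0.36, adjusted p = 0.00755), their light chain gene B2m (0.38, adjusted p = 0.0063) and the immunoproteasome subunit gene Psmb10 (0.25, adjusted p = 0.0448). The 3 constitutive catalytic subunit genes were not called, with a median of -0.13. The ratio of Psmb8 to Psmb5 in deposited RPKM was 0.419, 0.431 and 0.363 in TG+ mice and 0.252, 0.234 and 0.285 in TG- mice. The groups were apart, and the exact permutation test (2-sided) gave p = 0.1, the smallest that 3 against 3 mice allow. For Psmb10 over Psmb7 the ratio was 0.206 to 0.248 against 0.163 to 0.181 (exact p = 0.1).

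The summed levels of immune and endothelial cell markers were higher in every TG+ mouse than in any TG- mouse, while the count of single markers called differed between the lists. Of all genes, 15.4% were called higher and 10.9% lower. The summed level of 12 T and NK cell markers was 13.3 to 17.4 CPM in TG+ mice and 8.06 to 9.90 CPM in TG- mice, and 4 of 11 tested were called higher. That of 8 macrophage and dendritic cell markers was 149 to 155 CPM against 90.9 to 107 CPM, with 7 of 8 called. For 5 plasmacytoid dendritic cell markers the sums were 4.81 to 8.80 CPM against 3.37 to 3.79 CPM, with 1 of 5 called. In 43-49, 4.37 of the 8.80 CPM were from Cox6a2, which was not called (adjusted p = 0.0852). The marker called was Ly6d, and the others, Siglech among them (adjusted p = 0.0842), were not. For 5 B and plasma cell markers the sums were 304 to 545 CPM against 69.5 to 100 CPM, with 4 of 5 called, and most of these reads were from Jchain. All 6 endothelial markers were called, with sums of 499 to 537 CPM against 293 to 386 CPM. Proximal tubule markers went the other way, with 4 of 7 called lower and a median log2 fold change of -0.46, and 0 of 5 markers of other kidney cells were called. No marker in these lists was at 0 in every mouse, the kidney markers were high throughout, and the immune markers had reads in both groups. The summed type I genes were at 283 to 331 CPM against 183 to 217 CPM and the gamma genes at 210 to 279 CPM against 149 to 205 CPM. The part of the cell makeup in the differences of the interferon genes was not tested.

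**Figure D5:**
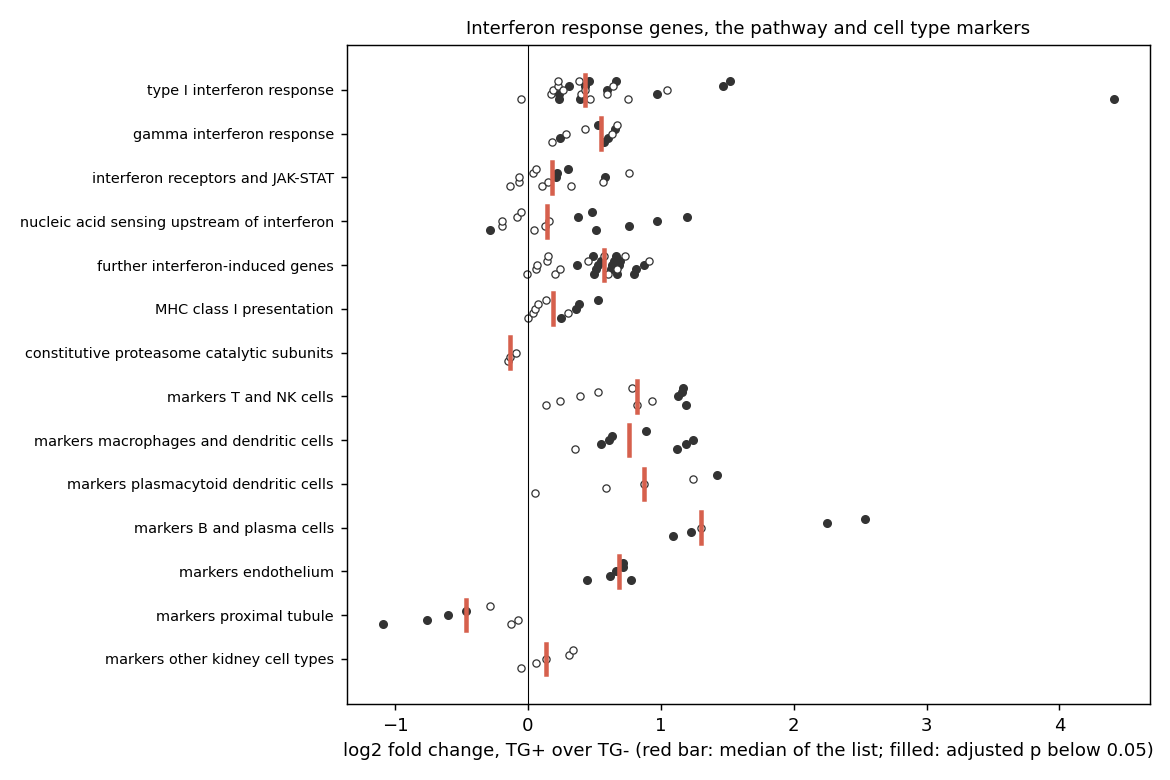
Log2 fold change of every tested gene (x axis, TG+ over TG-) in the interferon lists, the pathway lists and the marker lists, with the median of each list as a red bar and genes of adjusted p below 0.05 filled. The medians of the type I and gamma genes, 0.43 and 0.55, lie below those of the T and NK cell markers at 0.82 and the B and plasma cell markers at 1.30, and that of proximal tubule markers lies at -0.46.

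Per length of transcript the members spanned a wide range in TG- cortex. In the RPKM that the authors deposited, Bst2 was highest, at 10.7 ± 1.55 (SD, n = 3), followed by Irgm1 at 6.56 ± 0.906 and Ifi27 at 3.75 ± 0.388. Ifi27, Tap2 (3.39 ± 0.122) and Igtp (3.06 ± 1.09) did not differ beyond their spread. Oas1g was lowest, at 0.0351 ± 0.0118. The genes called by the threshold of the study came from the low end of this order, with Oasl1 at 0.278, Dhx58 at 0.233 and Isg20 at 0.218. The reads of a member per mouse ranged from 5 to 4349.

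Sequencing depth was similar in the groups, with 48052131 to 53275152 reads per TG+ mouse and 50570271 to 60506785 per TG- mouse. Transgene reads have no separate row, and Hif1a was at 86.3 to 109 CPM in TG+ mice and 103 to 107 CPM in TG- mice (log2 fold change -0.12 ± 0.09 SE, adjusted p = 0.343). Car9, a HIF target, was at 122 to 166 CPM against 11.7 to 17.6 CPM, which separated the groups as labelled.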

How the data were processed

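RNAseq libraries were made from kidney cortex with the TruSeq RNA kit, per the labels, and sequenced as 51-bp single-end reads by the methods of the study, which name the Tuxedo tools as the main software. The authors deposited a count of reads per Ensembl gene for each of 12 libraries, without normalization, and RPKM values of the same libraries, which were proportional to the count plus 1 (largest relative departure 6.0e-06). The submitters' processing notes name mm9, and the program that made the counts, the annotation release and handling of strand are not given in the sources used here. The 12 columns of log2 RPKM, and the columns of the authors' own fold changes, p-values and q-values, were not used. Symbols were matched through GENCODE M21 (32642 of 37681 genes), and no coordinates of counted genes are given because the builds differ. Promoter windows and their coordinates came from RefSeq (GRCm38.p6).

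Counts of the 2 kidneys were summed per mouse. Genes passing filterByExpr were scaled by TMM (factors 0.944 to 1.07) and fitted in R 4.3.3 with edgeR 4.0.16 and limma 3.58.1. The quasi-likelihood test was adjusted by the Benjamini-Hochberg method over 19399 genes. The standard error is the log2 fold change divided by the square root of F. The biological coefficient of variation between mice was 0.114. Libraries held 21888584 to 27819034 reads in TG+ and 24963346 to 33704850 in TG- mice. The procedure was tested on simulated counts. The values of 1 gene of the pathway lists, which is included in its list's counts, are not reported here. A member is given in full where it was called at an adjusted p below 0.05 or had 1 of the 3 highest or 3 lowest log2 fold changes of its list, and other members named were added for their role. The members, the lists and the tests were chosen with earlier results of these data known. The alternatives were other scalings, DESeq2 1.42.0, no filter, single kidneys, other thresholds, a minimum of 1 CPM, a pair block and each mouse left out.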

Additional observations from a re-analysis of the deposited data

Results flagged for a closer look

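Among the 6 libraries of each group, 72 sets of values (36 genes in 2 groups) were examined for 1 library that stood apart by Dixon's criterion, and 5 met it. Chance alone gives about 1 in 20, and the 2 kidneys of a mouse are not independent, so the criterion is approximate. Ifit2 was at 19.3 CPM in kidney 1 of TG+ mouse 43-29, where the other TG+ libraries were at 14.1 to 15.5 CPM. Oas1a was at 0.448 CPM in kidney 2 of TG+ mouse 43-75, against 0.705 to 0.825 CPM in the others. Oas1g was at 0.0 CPM in kidney 1 of TG- mouse 43-50, against 0.160 to 0.303 CPM, where 3 reads correspond to 0.0942 CPM. Ifih1 was at 19.5 CPM in kidney 1 of TG+ mouse 43-75, against 21.1 to 21.7 CPM. Psmb8 was at 9.65 CPM in kidney 1 of TG- mouse 43-76, against 8.20 to 8.51 CPM, which was still below every TG+ library.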

How the results depend on the processing

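The 24 members given in full were followed singly under 15 alternative fits, and the other 12 members only within the counts. Oas1g had values in only 12 of these fits, with none where each kidney was its own library or a single kidney was used. Of 357 such values, 296 kept their direction and their side of the threshold, 50 lost the call, 6 gained it and 5 changed sign. Among the members called, 5 of 12 type I genes (Dhx58, Isg20, Oasl1, Oasl2 and Zbp1) and 2 of 5 gamma genes (Irf1 and Psmb8) were called in all 15. The values that changed sign were those of Oas1g, with log2 fold changes of 0.06 with scaling by library size, 0.22 without 43-26, 0.12 without 43-75 and 0.07 without 43-76, and that of Irgm1, -0.02 without 43-29. Over all 6 mice left out in turn, Oas1g ranged from -0.40 to 0.22 and Irgm1 from -0.02 to 0.30. Where each kidney was its own library, which counts the 2 kidneys of a mouse as replicates, 22 type I, 8 gamma, 4476 of all genes higher and 3812 lower were called at an adjusted p below 0.05. With scaling by library size alone, which moved the median of all genes from 0.01 to 0.13, the counts were 19 type I genes, 4511 of all genes higher and 947 lower, and 22 genes lower by more than 2-fold. Kidney 1 alone gave 7 type I and 4 gamma genes, with 2343 of all genes higher, and kidney 2 alone gave 13 and 6, with 2476 higher. With an adjusted p below 0.01 at any fold, 6 type I, 2 gamma, 1534 higher and 824 lower were called, and with 2-fold at an adjusted p below 0.05, 3 type I and 0 gamma genes and 1016 of all genes were higher and 72 lower, in place of 732 and 41. With 1 mouse left out, which leaves fewer samples, 6 to 13 type I genes (6 without 43-29 or 43-50, 7 without 43-75) and 2 to 5 gamma genes (2 without 43-26, 43-29 or 43-50, 3 without 43-49) were called. Of all genes, 1985 to 2757 were then higher and 1199 to 2023 lower, and at the threshold of the study 469 to 633 higher and 29 to 50 lower, and 2 to 3 type I genes. The lowest of these counts over all genes were those without 43-76, except the 29 lower genes, which were without 43-50, where 1262 genes were lower at an adjusted p below 0.05. Apart from these constructions, the cause of the changes was not tested. A fit with littermate pairs as a block, in which the pairs come from a file name, gave 18 type I and 5 gamma genes, with 3413 of all genes higher and 2499 lower. The correlations of the pairs were mixed, at 0.283, 0.307 and -0.0599, and do not decide whether the mice are paired. The main fit has no pair block, since the labels do not give the pairs. With 3 mice a group the exact permutation test cannot go below p = 0.1, and members under 1 CPM rest on few reads.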
